A study of Mus musculus with 30 samples.

Results

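Of 30 bulk RNA sequencing libraries, 10 are described here, all from bone marrow-derived dendritic cells (BMDCs) labelled Cacnb3-KO: the 5 libraries whose names end in 0p5h and the 5 whose names end in 24h, one of each from the cultures p974s843, p974s851, p974s852, p974s853 and p974s865. By genotype they are Cacnb3-/- on C57BL/6N, Cacnb3 being the gene of the β3 subunit of voltage-gated calcium channels, and the marrow came from mice aged 6 to 12 weeks. BMDCs were grown in GM-CSF for 6 days, and the 24h libraries were taken 24 h after a 30 min pulse of 500 µM ATP. The same cultures also have a library named ctrl, and 15 further libraries came from 5 WT cultures on C57BL/6J. The treatment field reads vehicle for the 0p5h libraries and 30min_ATP for the ctrl libraries, so that names and field disagree for these sets, whereas both give 24 h after ATP for the third. The libraries are called 0p5h and 24h here, as they are named, and which of the ctrl and 0p5h sets received the 30 min pulse was not settled from the labels. The labels do not say whether a culture is 1 animal, so that p-values weigh a change against how much it varied among these cultures. Values are listed in the culture order above.

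Extracellular ATP is released by damaged and dying cells and is read by P2X ion channels and P2Y G protein-coupled receptors, through which calcium enters the cytosol or leaves its stores. In dendritic cells this danger signal switches on immediate early genes, which need no new protein to be transcribed and whose mRNAs decay fast, and it can start a slower programme of maturation and migration to lymph nodes. Type I interferon signals separately, through a complex of transcription factors that binds a short DNA element (ISRE) in front of antiviral genes.

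Cacnb3 itself was checked first. Reads were assigned to Cacnb3 (ENSMUSG00000003352, GRCm38 chromosome 15, 98632220 to 98644530, plus strand) in every library labelled Cacnb3-KO: 751.2, 997.1, 986.5, 1331.2 and 753.2 counts per 1000000 assigned reads (CPM, scaled by TMM) in the 0p5h libraries, and 572.9, 1005.9, 1140.7, 851.4 and 1295.0 CPM in their 24h libraries. The sets overlapped and the gene did not pass the test (log2 difference 0.00, SE 0.17, edgeR quasi-likelihood adjusted p = 0.986, n = 5 pairs). WT libraries averaged 1233 CPM at 0p5h and 1669 CPM at 24h. A count per gene does not show which exons the reads came from, so the label is not settled by these levels, and "Cacnb3-KO" below is the label of the libraries.

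Between 13807704 and 22826581 reads were assigned to genes in the 0p5h libraries and between 8237393 and 22535554 in the 24h libraries, and the 24h library was the shallower of the pair in 4 of 5 cultures. Mitochondrially encoded transcripts took 2.16% to 10.5% of the counts at 0p5h and 3.21% to 16.5% at 24h, and the share was higher at 24h in 5 of 5 cultures. Its rise was smallest in cultures p974s865 (2.16% to 3.21%) and p974s851 (4.78% to 6.0%) and widest in culture p974s853 (5.13% to 13.6%). The 24h library of culture p974s843 was both the shallowest of the 10 (8237393 reads) and the one with the highest share (16.5%). BMDC identity was checked on markers: 14 of 15 dendritic cell genes were expressed enough to be tested and their summed level was 25404 to 39925 CPM at 0p5h and 19752 to 30104 CPM at 24h. The erythroid marker Hbb-bs had no read, and Ms4a1, Cd3e, Cd3d, Ncr1, Siglech, Fcer1a and Ms4a2 stayed under 1 CPM in each of the 10 libraries. Other genes of the same marker lists were expressed. Kit, of the mast cell list, had 103 to 160 CPM at 0p5h and 105 to 167 CPM at 24h. Cd8a, of the T and NK cell list, had 12 to 18.5 and 11.2 to 21.8 CPM. The plasmacytoid dendritic cell list summed to 359 to 885 and 375 to 919 CPM, and the B cell list to 23.5 to 82 and 24.3 to 65.4 CPM. Neutrophil genes summed to 408 to 638 CPM at 0p5h and 458 to 894 CPM at 24h, and none of the 13 tested was called. The dendritic cell sum was lower at 24h in 5 of 5 cultures, but its genes went both ways. None of the 14 tested was called. By adjusted p alone 6 were lower (14.4% of all genes) and 4 higher (14.2% of all genes). Their log2 differences, 24h minus 0p5h, ran from -0.67 (Itgax) to 0.73 (Flt3), with a median of -0.25. The sum of 14 macrophage genes was also lower in 5 of 5 cultures, at 2992 to 16864 CPM at 0p5h and 2671 to 10423 CPM at 24h. Of these 14, 1 was called lower (Cd14), and 6 were lower and 2 higher by adjusted p alone. In such bulk samples, fewer cells of a type and less RNA per cell cannot be told apart.

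Across the transcriptome, BMDCs labelled Cacnb3-KO had lower levels of immediate early transcripts and of several inflammatory ligands at 24h than at 0p5h, and higher levels of interferon-stimulated transcripts. Among genes with a mean of at least 5 CPM in the higher set, the largest falls were in the AP-1 gene Fosb, the zinc finger gene Egr3 and the orphan nuclear receptor Nr4a1, and the largest rises were in Ch25h, which makes 25-hydroxycholesterol, and in the Ifit genes. Of 12730 genes tested with the culture as a block, 367 had an adjusted p under 0.05 and at least a 2-fold difference: 167 were higher at 24h (1.31%) and 200 were lower (1.57%). The direction was shared by 5 of 5 cultures in 331 of the 367, and in 132 the values of the 10 libraries separated fully, 47 upwards and 85 downwards, where 1.37% and 1.83% of all tested genes did so. A difference over 4-fold was found in 14 genes that rose and 30 that fell. The median of all tested genes was 0.00 on the log2 scale. Signed values after a gene, and amounts by which a gene rose or fell, are log2 differences, 24h minus 0p5h, in the blocked edgeR fit. Counts of called genes in the lists below are to be read beside the 1.31% and 1.57% of all genes.

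Adjusted p alone, with no minimum for the fold, was under 0.05 for 1811 genes higher (14.2%) and 1834 lower (14.4%). Without the culture block, which removes the level shared by the libraries of one culture, 21 genes were higher and 63 lower, each of them among the 167 and 200. When the log2 mitochondrial share entered the fit as a covariate, 10 were higher and 67 lower, of which 9 and 58 were among the calls above, with 158 of the 167 rises and 198 of the 200 falls in the same direction. The plot of every tested gene shows the called immediate early genes below and the called interferon-stimulated genes above the line of no difference.

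**Figure D1:**
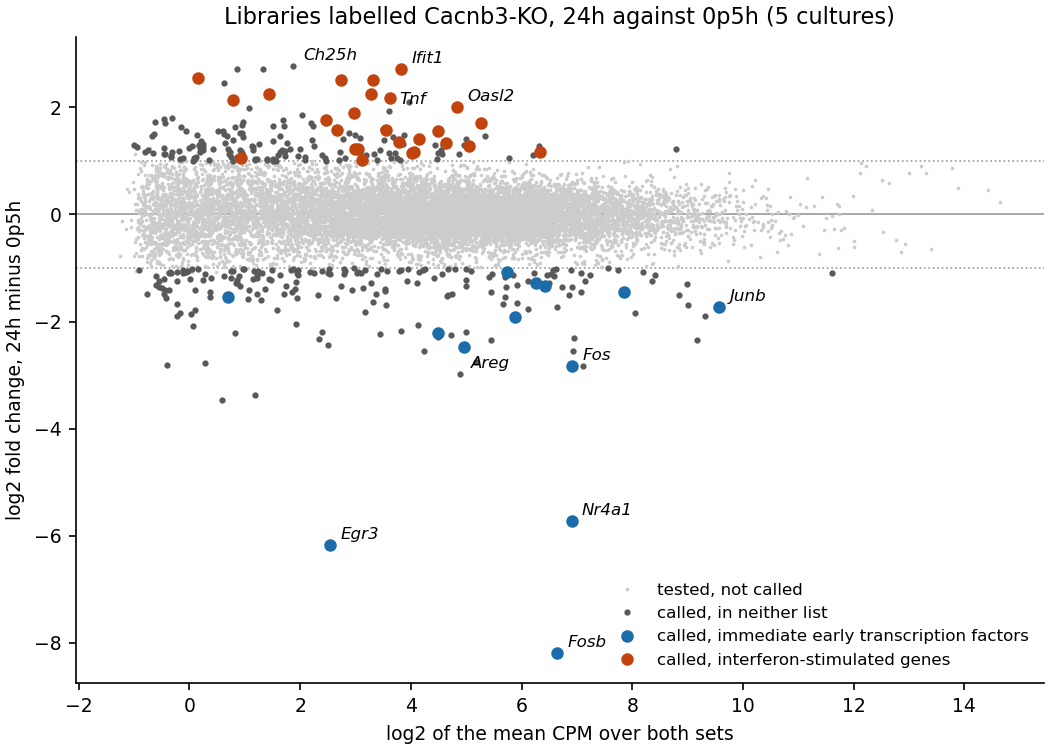
Each point is 1 of 12730 tested genes in libraries labelled Cacnb3-KO, with its mean level over the 10 libraries (log2 CPM, x axis) and its log2 difference, 24h minus 0p5h, from edgeR (y axis). Genes called are dark, with dotted lines at a 2-fold difference. The called immediate early transcription factors (blue) reach down to -8.20 for Fosb and the called interferon-stimulated genes (orange) reach up to 2.71 for Ifit1, while the median of all genes is 0.00.

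Immediate early transcription factors held the deepest falls. These factors (the AP-1, Egr, Nr4a and Klf families) turn a receptor signal into a first wave of transcription. Of 26 tested, 13 fell (1.57% of all genes) and none rose (1.31% of all genes). A further 5 had an adjusted p under 0.05 with a difference below 2-fold, and the median log2 difference was -1.02. Their summed level was 4674 to 6492 CPM at 0p5h and 2652 to 3481 CPM at 24h, lower at 24h in 5 of 5 cultures and without overlap, and 8 of the list were called without the block and 9 with the mitochondrial share as a covariate.

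Fosb, an AP-1 subunit (ENSMUSG00000003545, chromosome 7, 19302721 to 19310045), stood at 223, 232, 83.9, 98.5 and 352 CPM in the 0p5h libraries and at 1.6, 0.451, 0.616, 0.786 and 0.536 CPM in the 24h libraries. The lowest 0p5h library was thus far above the highest 24h library, and the fitted difference was -8.20 (SE 0.29, edgeR adjusted p = 7.62e-08, the lowest of all genes), a 294-fold fall. In the ctrl libraries of the same cultures Fosb averaged 5.42 CPM. Nr4a1, an orphan nuclear receptor induced by calcium and cAMP, had 213, 257, 106, 145 and 452 CPM at 0p5h and 8.38, 4.36, 2.73, 3.24 and 3.46 CPM at 24h. It fell by 5.73 (SE 0.28, edgeR adjusted p = 8.1e-07) in sets that did not overlap. Egr3, a zinc finger factor of the same family as Egr1, had 3.59, 9.81, 1.41, 1.73 and 41.2 CPM at 0p5h and 0, 0.2, 0, 0.0982 and 0.454 CPM at 24h. Every 24h library lay under 1 CPM, and since 2 of them had no read, the fitted fall of 6.17 (SE 0.30) depends on the prior count of the model and is no bound.

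Fos, an AP-1 subunit, had 300, 223, 147, 156 and 225 CPM at 0p5h and 54, 27.8, 25.1, 27.1 and 17.6 CPM at 24h. The sets were apart, with culture p974s843 the highest in both (-2.84, SE 0.17, edgeR adjusted p = 2.21e-06). Junb, another AP-1 subunit, fell from 739 to 1435 CPM to 274 to 398 CPM in every culture (-1.73, SE 0.10). Egr1 fell by 2.47 although its sets overlapped, since culture p974s843 was high at both times with 123 and 27 CPM and the other 0p5h libraries held 22.4 to 43.9 CPM. Further down the scale, Klf4 (-2.22), a factor of monocyte differentiation, Egr2 (-1.91), Fosl1 (-1.54), Fosl2 (-1.45), Nr4a2 (-1.34), Ier2 (-1.29) and Maff (-1.08) fell. Not every member did: Jun had 47.4 to 79.5 CPM at 0p5h and 48.5 to 61.7 CPM at 24h (-0.05), and Nr4a3 had 550 to 946 and 469 to 607 CPM (-0.45), short of the 2-fold minimum.

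Genes known as cAMP and CREB targets, only some of which damp the signal that induces them, were the next group. Of 19 tested 9 fell (1.57% of all genes) and none rose (median -0.74). Of the 9, 5 were Fosb, Nr4a1, Ptgs2, Areg and Dusp1, described under other roles. Sik1, a kinase that keeps the CREB coactivators out of the nucleus, had 78.5, 73.3, 52.3, 64.6 and 96.6 CPM at 0p5h and 19, 13.3, 15, 10.1 and 14.1 CPM at 24h, with no overlap (-2.35, SE 0.14, edgeR adjusted p = 2.56e-06). Rgs2, which speeds GTP hydrolysis on Gq, fell by 1.85 from 322 to 492 CPM to 99.7 to 147 CPM. Per1, a clock repressor, fell by 1.36, and Thbs1, a secreted matrix glycoprotein, by 1.09 from 2308 to 7641 CPM to 1591 to 2292 CPM.

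MAPK phosphatases moved in both directions. Dusp1, the inducible nuclear phosphatase of p38 and JNK, had 690, 860, 751, 829 and 799 CPM at 0p5h and 255, 241, 257, 300 and 166 CPM at 24h, again without overlap (-1.70, SE 0.13, edgeR adjusted p = 1.37e-05). Dusp4 (-1.83) and the EGF receptor inhibitor Errfi1 (-1.55) fell too, while Dusp2, a phosphatase of ERK in lymphoid and myeloid cells, rose from 2.39, 4.55, 4.24, 5.61 and 2.43 CPM to 7.45, 11.4, 10.6, 9.82 and 9.94 CPM (1.41, SE 0.17, edgeR adjusted p = 0.000322). Every 24h value of Dusp2 lay above every 0p5h value. Of the 14 tested genes of this list 3 fell (1.57% of all genes) and 1 rose (1.31% of all genes).

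In the JAK-STAT list, which holds ligands as well as feedback genes, 4 of 10 fell (1.57% of all genes, list median -0.83). They were the kinase Pim3 by 1.76, the receptor adaptor Cish from 21.3 to 52.5 CPM to 10.7 to 15.1 CPM, and the IL-6 family ligands Osm and Lif. Socs3, the best known inhibitor of this pathway, was 0.92 lower (adjusted p = 0.00282 by edgeR), under the fold minimum. The anti-proliferative genes Btg2 and Tob2, which recruit mRNA deadenylases, fell by 1.90 and 1.10. Btg2 had 842 to 1211 CPM at 0p5h and 173 to 363 CPM at 24h. Of 18 NF-κB subunits and inhibitors only Nfkbiz, a nuclear IκB protein, was called (-1.44), and Tnfaip3, which encodes the deubiquitinase A20, had 530 to 686 and 245 to 375 CPM, 0.97 lower (adjusted p = 0.000118 by edgeR).

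Of 21 tested cytokines and EGF family ligands 6 fell (1.57% of all genes), 1 rose (1.31% of all genes) and 14 were not called (median -0.41). Among the latter was the alarmin Il1a (1.57 to 15.5 and 3.63 to 16.2 CPM, 0.47). Areg, an EGF receptor ligand, had 36.5, 40.2, 66.5, 68.7 and 50.7 CPM at 0p5h and 5.05, 5.51, 8.8, 12.5 and 3.46 CPM at 24h. No 24h library reached the lowest 0p5h library (-2.98, SE 0.17, edgeR adjusted p = 2.15e-06). Osm, an IL-6 family cytokine made by myeloid cells, had 233, 189, 193, 234 and 176 CPM at 0p5h and 50.7, 34.4, 54.7, 50.7 and 24.2 CPM at 24h. It too separated the sets (-2.30, SE 0.13, edgeR adjusted p = 2.15e-06).

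Il1b, the pro-form of which is cleaved by the inflammasome, had 785, 635, 363, 397 and 1347 CPM at 0p5h and 236, 256, 182, 233 and 185 CPM at 24h. The 24h libraries were closely grouped below all 0p5h libraries (-1.51, SE 0.24, edgeR adjusted p = 0.00165). Nlrp3, the sensor of that inflammasome and a responder to ATP through P2X7, fell by 1.67 (SE 0.15), from 25.5 to 181 CPM to 10.3 to 34.3 CPM. Its sets overlapped, and Casp1, the protease of the complex, was higher at 24h in 5 of 5 cultures (24.9 to 38 against 44.2 to 70.5 CPM, 0.72, below the fold minimum). Il12b, the subunit shared by IL-12 and IL-23, fell by 1.25 in overlapping sets, and Lif and the angiogenic factor Vegfa fell by 1.33 and from 562 to 917 CPM to 214 to 428 CPM.

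Tnf, the cytokine that rose, had 8.88, 5.04, 2.9, 2.99 and 5.72 CPM at 0p5h and 23.3, 31, 12.6, 11.6 and 17.2 CPM at 24h, every 24h library above every 0p5h library (1.94, SE 0.17, edgeR adjusted p = 4.39e-05). Its mean in the ctrl libraries of these cultures was 15.4 CPM, within the range of the 24h set. Chemokine genes mostly missed the criteria: of 15 tested, Ccl7 (-1.49) and Ccl2 (-1.13), both monocyte attractants at no more than 7.83 CPM, fell, and Ccl22, at 3810 to 5822 and 3906 to 6782 CPM, differed by 0.08.

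Of 10 tested chemokine receptors 2 fell, none rose, and 2 were higher by adjusted p alone (14.2% of all genes). Ccrl2, an atypical receptor that presents chemerin, had 159, 282, 212, 159 and 404 CPM at 0p5h and 29.9, 31.5, 34.9, 37.2 and 27.3 CPM at 24h. The 24h libraries differed little among themselves and lay below all 0p5h libraries (-2.83, SE 0.22, edgeR adjusted p = 1.59e-05). Ackr3, a scavenger of CXCL12, fell by 2.24, while Ccr7, which guides dendritic cells to lymph nodes, had 2405 to 4174 and 1667 to 3869 CPM (-0.28, adjusted p = 0.0762 by edgeR).

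Cd14, the lipopolysaccharide co-receptor, had 1167, 1070, 232, 418 and 2064 CPM at 0p5h and 249, 209, 55.5, 116 and 205 CPM at 24h. The fall of 2.35 (SE 0.18, edgeR adjusted p = 1.52e-05) was seen within each culture, although culture p974s852 started low enough for the sets to overlap. Cd14 is also one of the macrophage markers, and the macrophage sum (Cd14 included) and the dendritic cell sum given above were lower in the same 5 cultures, whose part in this fall and in that of Tlr2 was not tested. Tlr2 fell by 1.12 and the Langerhans lectin Cd207 by 1.03, whereas Tlr1 and the endosomal double-stranded RNA receptor Tlr3 rose by 1.05 and 1.09, to at most 10.4 CPM. Trem1, which amplifies inflammation in myeloid cells, fell by 2.76 from 10.8 to 155 CPM to 2.38 to 11.3 CPM. Lrrc32, which anchors latent TGF-β (-2.55), Thbd, the thrombin receptor thrombomodulin (-2.44), the adhesion adaptor Cass4 (-2.33), Plaur, the urokinase receptor (-1.51), and the sphingosine 1-phosphate receptor S1pr3 (-1.40) also fell.

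**Figure D2:**
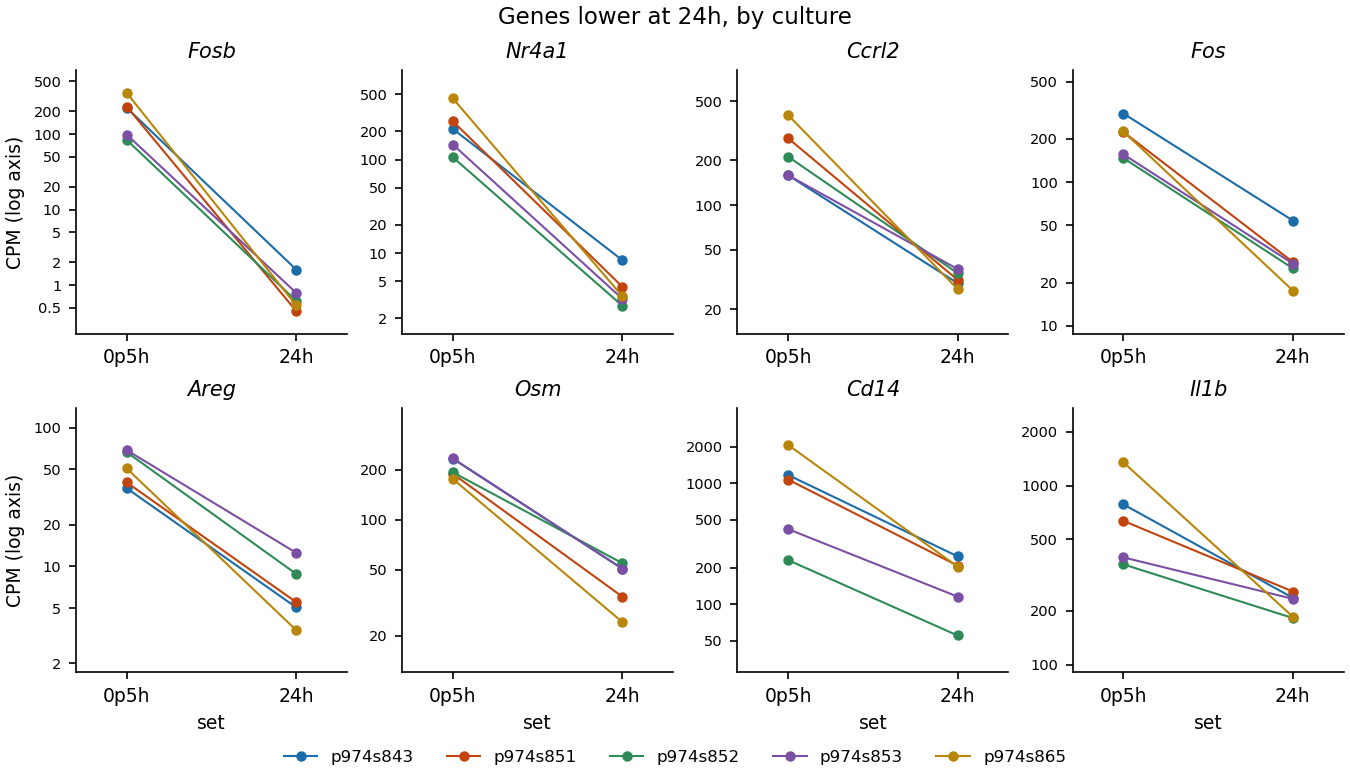
Level in CPM (log axis) of 8 genes that fell in libraries labelled Cacnb3-KO, with 1 line per culture joining its 0p5h library to its 24h library. Each line goes down, and the steepest is Fosb, from 83.9 to 352 CPM at 0p5h to 0.451 to 1.6 CPM at 24h.

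Genes of glycolysis and hypoxia leaned downwards as a group, most of them by less than 2-fold. Of 28 tested, 6 fell (1.57% of all genes) and none rose. In the lower direction 23 had an adjusted p under 0.05 (14.4% of all genes). Lower in 5 of 5 cultures were 24 (19.1% of all genes), and the median was -0.75. Hk2, which traps glucose in the cell, fell by 1.35, Slc16a3, which exports lactate, by 1.24 from 221 to 701 CPM to 86 to 281 CPM, and the oxygen sensor gene Egln3 by 1.10. Gapdh had 91.4, 85.7, 78.2, 131 and 230 CPM at 0p5h and 22.5, 46.2, 29.3, 44.7 and 143 CPM at 24h. Culture p974s865 was the highest in both sets, and only within cultures did the fall stand out (-1.28, SE 0.16, edgeR adjusted p = 0.000393). Gapdh has many processed pseudogenes with which reads may be shared. Without the block 1 of the 6 was called (Vegfa). Hilpda, a hypoxia-induced lipid droplet protein outside the list, fell by 2.56, and Ldha, the last enzyme of fermentative glycolysis, was 0.70 lower (1417 to 2334 against 726 to 1796 CPM, adjusted p = 0.00118 by edgeR).

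Of the gene lists, that of interferon-stimulated genes held the most rises. These antiviral genes are switched on by the ISGF3 complex and by interferon regulatory factors. Of 52 listed, 48 were expressed enough to be tested. Of these, 26 rose (1.31% of all tested genes) and none fell. In the higher direction 46 had an adjusted p under 0.05, beside 14.2% of all tested genes. The median log2 difference was 1.10. Higher in 5 of 5 cultures were 42 of the 48 (16.8% of all genes), and 19 separated the sets fully (1.37% of all genes). Their summed level, 2289 to 3540 CPM at 0p5h, was 3312 to 4633 CPM at 24h and higher in 5 of 5 cultures. Of the whole list, 7 were called without the block, 22 with the GC trend removed and 22 without cultures p974s843 and p974s853. With the mitochondrial share as a covariate 1 was called and the median was 0.75, and the part of that share in the rise was not tested.

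Promoters were searched for several motifs, the ISRE named above among them. The ISRE is shown in sequence because its share in called genes exceeded that of all promoters most. In the 250 bases before the start, the ISRE letters, GAAA followed by 2 bases of any kind and GAAA, on either strand, were present in 24.4% of the windows of genes that rose (123 windows of 110 genes), in 5.13% of those of genes that fell (156 windows of 119 genes) and in 2.98% of all 32851 promoter windows of RefSeq. The half-site of the cAMP response element (TGACG, either strand) was in 15.4%, 30.8% and 17.8% of these windows, and in 26.4% of those of all tested genes. The AP-1 letters TGANTCA were in 10.6%, 7.05% and 6.75%, and in 4.56% of the windows of all tested genes. For the ISRE that last share was 2.74%. In the same order of 4, the NF-κB site was in 4.07%, 7.69%, 3.9% and 4.73%. The SRF CArG box was in 0%, 3.21%, 1.47% and 1.1%. The full cAMP response element was in 3.25%, 3.21%, 1.55% and 2.53%, and the E2F site in 2.44%, 3.85%, 1.3% and 2.43%. The windows of the 5 genes that rose with the most ISRE copies are shown, with the copies in capitals. Of these, 3 stand in the Ifit cluster on chromosome 19 that had the largest rises of the interferon list. They are RefSeq promoters on GRCm38.p6, written 5′ to 3′ on the strand of the gene: Isg15 at chr4:156200819-156201068 (minus, 3 overlapping copies), Ifit1 at chr19:34640639-34640888 (plus), Ifit3b at chr19:34607707-34607956 (plus), Ifit3 at chr19:34583279-34583528 (plus) and Ddx60 at chr8:61927837-61928086 (plus), the last 4 with 2 copies each.
Isg15: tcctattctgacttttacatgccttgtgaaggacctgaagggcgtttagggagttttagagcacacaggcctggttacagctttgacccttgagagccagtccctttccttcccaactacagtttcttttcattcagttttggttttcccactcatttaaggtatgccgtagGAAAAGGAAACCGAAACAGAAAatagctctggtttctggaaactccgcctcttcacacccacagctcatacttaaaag
Ifit1: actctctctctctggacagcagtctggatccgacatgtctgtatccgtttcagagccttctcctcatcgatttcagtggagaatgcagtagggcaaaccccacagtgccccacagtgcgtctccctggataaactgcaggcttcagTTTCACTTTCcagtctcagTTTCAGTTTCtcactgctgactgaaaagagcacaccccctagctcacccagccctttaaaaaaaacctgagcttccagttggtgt
Ifit3b: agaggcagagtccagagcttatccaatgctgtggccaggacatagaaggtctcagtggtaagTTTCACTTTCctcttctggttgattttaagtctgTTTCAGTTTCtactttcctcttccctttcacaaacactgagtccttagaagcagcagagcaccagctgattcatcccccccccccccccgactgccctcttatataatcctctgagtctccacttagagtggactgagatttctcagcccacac
Ifit3: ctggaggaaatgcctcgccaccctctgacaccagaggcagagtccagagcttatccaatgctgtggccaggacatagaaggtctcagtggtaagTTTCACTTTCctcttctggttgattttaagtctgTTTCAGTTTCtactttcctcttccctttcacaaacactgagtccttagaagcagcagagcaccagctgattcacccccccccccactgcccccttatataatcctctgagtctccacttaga
Ddx60: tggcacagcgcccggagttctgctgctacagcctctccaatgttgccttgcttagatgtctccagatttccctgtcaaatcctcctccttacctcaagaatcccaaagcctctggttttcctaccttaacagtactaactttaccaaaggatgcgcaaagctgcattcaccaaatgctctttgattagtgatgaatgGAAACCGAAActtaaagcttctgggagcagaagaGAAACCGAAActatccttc
The match is a description of letters and not of a bound site. The nearest copy lies 66 bases before the start in Isg15 and 85 bases before it in Ifit1.

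Ifit1, which binds viral RNA lacking a 2′-O-methylated cap (ENSMUSG00000034459, chromosome 19, 34640871 to 34650009), had 6.93, 5.04, 1.27, 1.89 and 2.48 CPM at 0p5h and 58.1, 20.3, 13, 24.6 and 7.63 CPM at 24h. Each 24h library exceeded each 0p5h library (2.71, SE 0.26, edgeR adjusted p = 7.53e-05). Ifit2, which restricts translation, had 7.56, 3.58, 0.968, 1.47 and 2.05 CPM at 0p5h and 31.3, 20.1, 8.36, 17.3 and 6.81 CPM at 24h. Only the 0p5h library of culture p974s843 reached into the 24h range (2.51, SE 0.22, edgeR adjusted p = 4.38e-05). Ifit3 (2.51) and Ifit3b (2.54) rose as well. These paralogs share sequence, so the split of reads among them is uncertain. The same reservation holds for the Oas, Slfn, Ifi20x, Trim30, Ly6 and Ms4a families.

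Irf7, the transcription factor that carries the second wave of interferon transcription, had 23.6, 17.7, 2.68, 8.44 and 9.66 CPM at 0p5h and 53.6, 36.4, 17.4, 32.2 and 23.6 CPM at 24h. It was higher in every culture, with overlapping sets, since the 0p5h libraries of cultures p974s843 and p974s851 stood above the 24h library of culture p974s852 (1.55, SE 0.19, edgeR adjusted p = 0.000336). Among effectors, Oasl2, of the oligoadenylate synthetase family, went from 20.9, 16.4, 4.09, 7.82 and 8.1 CPM to 92.2, 48.5, 28.5, 31.2 and 26.2 CPM with no overlap (2.01, SE 0.15, edgeR adjusted p = 1.44e-05). Oas2 (1.89), Oasl1 (1.23), Rsad2, which makes a chain-terminating nucleotide (1.71), and its neighbour Cmpk2 (2.24) rose too. The 24h libraries were uneven in Rsad2, from 17.6 CPM in culture p974s865 to 136 CPM in culture p974s843. The latter library, also the highest at 24h for Ifit1, Ifit2, Irf7 and Oasl2, was the shallowest and had the highest mitochondrial share.

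The ubiquitin-like modifier Isg15 rose by 1.41, from 4.39 to 14.5 CPM to 14.1 to 44.2 CPM. Sensors of nucleic acid were among the rises: Rigi, the RNA helicase RIG-I (1.14), Ddx60, a helicase that assists it (1.57), Zbp1, a sensor of Z-form nucleic acid (1.17), and the DNA sensors Ifi204 (1.27) and Ifi205 (2.13). The GTPases Irgm1 (1.33), Igtp (1.01) and Gbp7 (1.22), which act on vacuoles of intracellular pathogens, rose along with Rtp4 (2.18), Ifi44 (2.24), Xaf1 (1.35), Trim30a (1.16), Phf11d (1.06), Slfn1 (1.76) and Slfn8 (1.57). Mx1, the dynamin-like GTPase, was not called: it had 320 to 590 CPM at 0p5h and 442 to 681 CPM at 24h (0.46 higher, adjusted p = 0.0117 by edgeR).

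**Figure D3:**
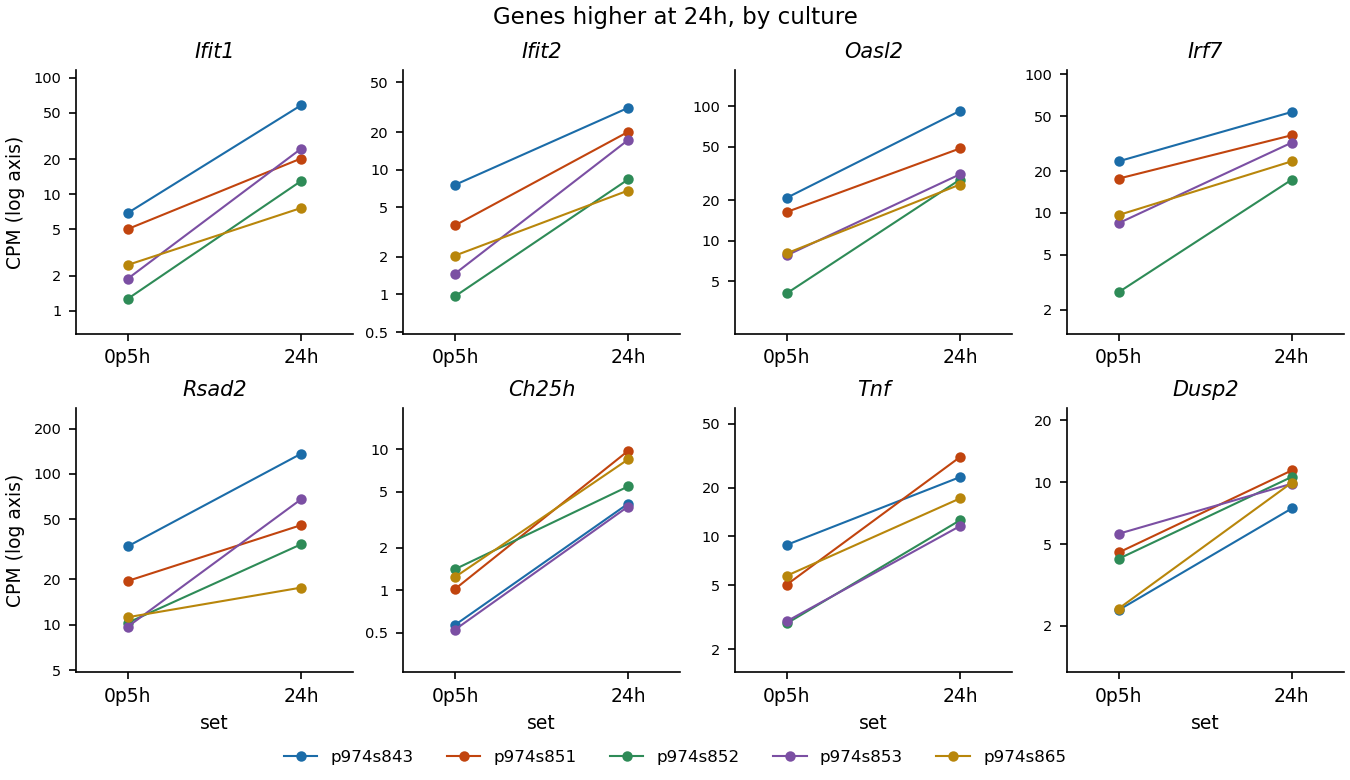
Level in CPM (log axis) of 8 genes that rose in libraries labelled Cacnb3-KO, with 1 line per culture joining its 0p5h library to its 24h library. Each line goes up, Ifit1 for example from 1.27 to 6.93 CPM to 7.63 to 58.1 CPM.

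Outside the interferon list, Ch25h, whose product 25-hydroxycholesterol blocks membrane fusion of viruses and sterol synthesis, had the largest rise of the named genes. It had 0.567, 1.02, 1.41, 0.525 and 1.24 CPM at 0p5h and 4.12, 9.77, 5.46, 3.93 and 8.5 CPM at 24h. The sets were well apart (2.77, SE 0.21, edgeR adjusted p = 1.47e-05), on 84 reads in all at 0p5h and 534 at 24h. Slfn4 (2.10), the stem cell antigen Ly6a (1.71) and the membrane proteins Ms4a4c (1.86) and Ms4a6b (1.77) also rose. Apol7c, a marker of mature dendritic cells, had 120, 307, 382, 327 and 194 CPM at 0p5h and 275, 889, 668, 464 and 810 CPM at 24h. It was higher in every culture although the sets overlapped (1.23, SE 0.18, edgeR adjusted p = 0.00113).

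Prostaglandin genes moved in both directions. Ptgs2, which encodes the inducible cyclooxygenase COX-2, had 226, 127, 115, 74.2 and 206 CPM at 0p5h and 103, 53.5, 27.2, 56.5 and 10.6 CPM at 24h. The sets overlapped, and culture p974s865 had the deepest fall (-1.73, SE 0.42, edgeR adjusted p = 0.0124). Hpgds, the prostaglandin D2 synthase of haematopoietic cells, rose by 1.27 and Ptger2, a receptor for prostaglandin E2 that signals through cAMP, by 1.16. The other 14 of 17 tested genes of the list were not called.

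For calcium and ATP, none of 9 tested P2X and P2Y receptors, 12 genes of ATP and adenosine handling, 12 of IP3 receptors and phospholipase C or 20 of calcium entry and pumps met both criteria, where 1.31% and 1.57% of all genes did, so that 0 calls in lists of this length are near the background. By adjusted p alone 4 of the 9 receptors were higher (14.2% of all genes) and none lower (14.4% of all genes). Their sum was higher at 24h in 5 of 5 cultures (481 to 691 against 609 to 782 CPM). The UDP receptor gene P2ry6 had 8.49 to 22.5 and 12.9 to 35.4 CPM (0.49, adjusted p = 0.0167 by edgeR). Of the 20 calcium entry and pump genes 3 were higher and 4 lower by adjusted p alone. These counts are near the background of 14.2% and 14.4% of all genes. Their sum was 2576 to 3889 and 2678 to 4211 CPM, higher in 5 of 5 cultures. The channel P2rx7 had 8.26 to 28.8 and 9.43 to 24.6 CPM (-0.13, SE 0.13), and the IP3 receptor gene Itpr3 had 10.1 to 17.8 and 8.45 to 17.5 CPM (-0.49, adjusted p = 0.0263 by edgeR). Of 24 mature migratory dendritic cell genes 1 rose (Apol7c), none fell, and 10 had an adjusted p under 0.05 in the higher direction (14.2% of all genes) and none in the lower (median 0.28). Higher in 5 of 5 cultures were 11 of the 24 (16.8% of all genes), as was their sum, at 19818 to 33471 CPM at 0p5h and 22656 to 36343 CPM at 24h. The maturation marker Cd83 had 1529 to 2680 and 1482 to 2415 CPM (-0.04), and Fscn1, the actin bundler of dendrites, 1782 to 5098 and 1969 to 4227 CPM (0.20). Of 16 tested costimulation and checkpoint genes 1 rose (Btla) and none fell (median -0.15). By adjusted p alone 2 were higher (14.2% of all genes) and 4 lower (14.4% of all genes). The receptor gene Cd40, which receives T cell help, had 65.9 to 213 and 132 to 233 CPM (0.54). Cd80 had 97.3 to 168 and 67.4 to 121 CPM, lower in 5 of 5 cultures (-0.47, adjusted p = 0.00473 by edgeR).

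Transcripts of MHC class II presentation genes leaned lower, by less than 2-fold. None of 14 genes was called, 8 had an adjusted p under 0.05 in the lower direction (14.4% of all genes), and the median was -0.53. Their sum was 24909 to 45885 CPM at 0p5h and 19013 to 33219 CPM at 24h, lower in 5 of 5 cultures. The dendritic cell and macrophage sums were lower too, and their part was not tested. The class II gene H2-Ab1 is also counted in the dendritic cell sum, so the class II and dendritic cell sums are not independent. The invariant chain gene Cd74 had 8768 to 17361 and 6001 to 12865 CPM (-0.64, adjusted p = 0.0016 by edgeR). Ciita, the master activator of the class, had 30.9 to 102 and 16.2 to 65.7 CPM (-0.66). Without the block the edgeR adjusted p was 0.263 for Cd74 and 0.445 for Ciita. With the mitochondrial share as a covariate it was 0.6 and 0.455. For MHC class I the median of 15 genes was 0.03.

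In the remaining lists without a call, some leaned one way by adjusted p alone. Of the 10 tested mitochondrially encoded genes 9 had an adjusted p under 0.05 in the higher direction with a median of 0.78, which went to -0.05 with their own share as a covariate, whereas 62 nuclear subunits of the respiratory chain had a median of -0.16. Of 75 ribosomal protein genes 24 were lower by adjusted p alone (14.4% of all genes) and 1 higher (median -0.24), and their sum was lower in 5 of 5 cultures, at 19904 to 26862 CPM at 0p5h and 16079 to 22933 CPM at 24h. The genes lower by adjusted p alone were 9 of 26 for the integrated stress response, 7 of 16 for oxidative stress and 8 of 28 for the lysosome. Higher were 2, 2 and 1 of these lists in the same order. Over all genes 14.4% were lower and 14.2% higher. Heat shock chaperones (16, 0.09), integrated stress response (26, -0.06), oxidative stress (16, -0.09), cholesterol synthesis (24, -0.01), LXR targets (10, -0.12), cell cycle (38, 0.05), lysosome (28, -0.14) and adhesion (26, 0.04) were without a gene past both criteria. Of all genes 1.31% and 1.57% passed, so that lists of this length without a call are near the background. Among the 26 adhesion genes 5 were higher and 4 lower by adjusted p alone. Among cholesterol synthesis genes 5 were higher (14.2% of all genes) and 1 lower (14.4% of all genes) by adjusted p alone. Cyp51, a sterol demethylase, had 30 to 56.8 and 61.4 to 90.6 CPM (0.77, adjusted p = 0.00534 by edgeR).

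**Figure D4:**
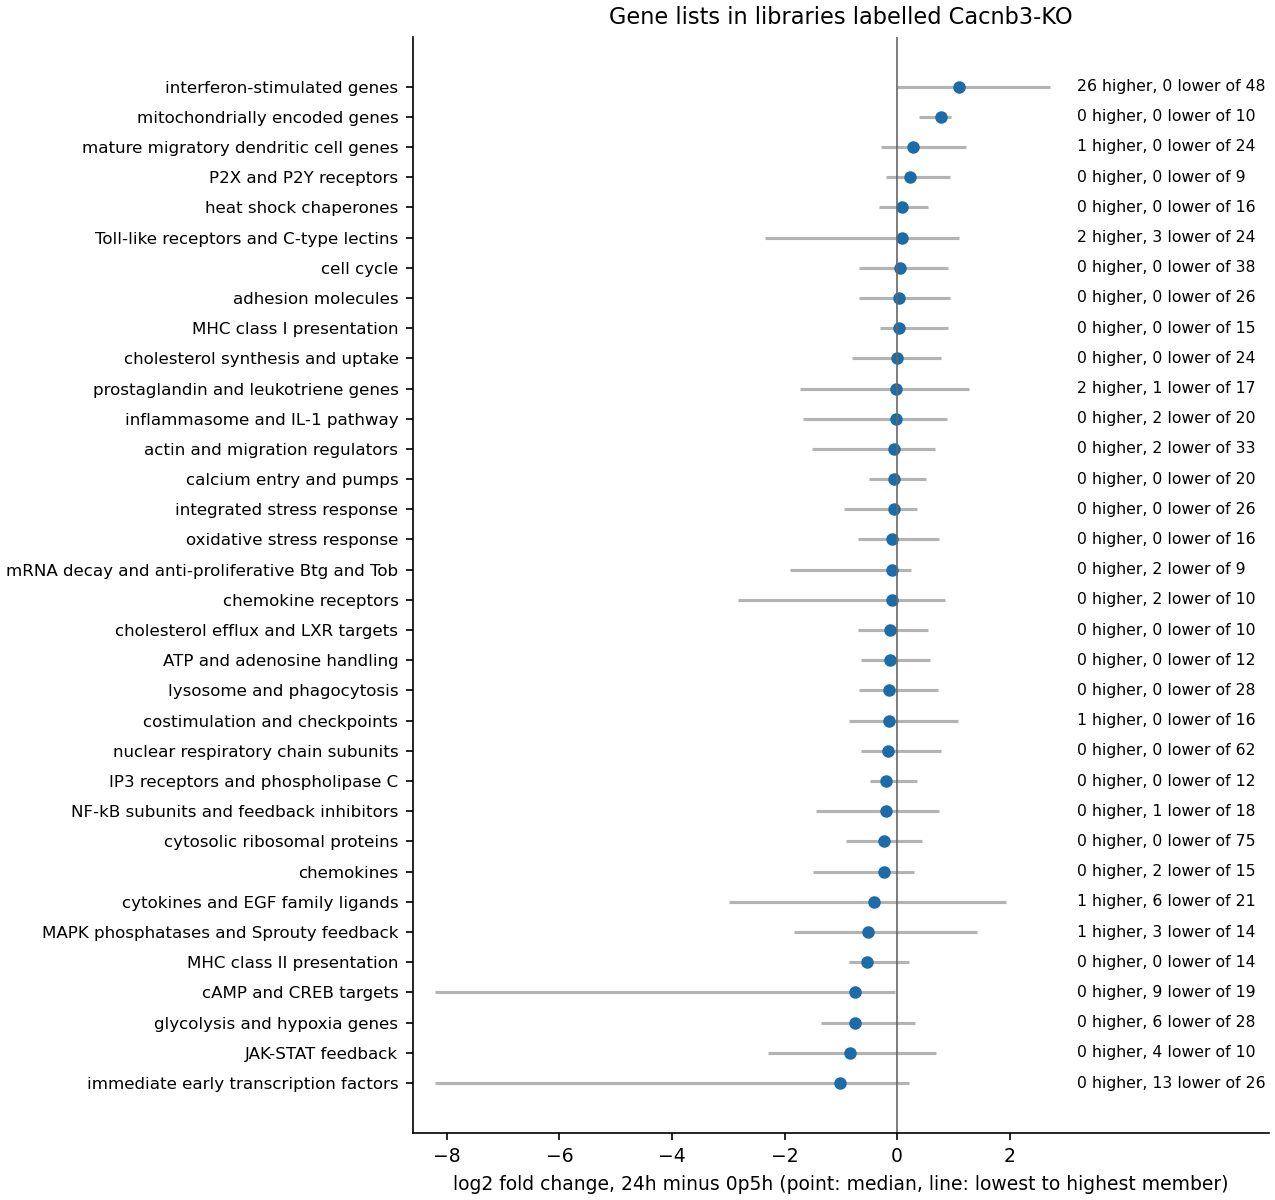
For each gene list, the dot is the median and the line the range of the log2 differences (24h minus 0p5h, libraries labelled Cacnb3-KO) of its tested genes, with the counts called lower and higher written beside it. Interferon-stimulated genes lie furthest to the right (median 1.10, 26 of 48 higher) and immediate early transcription factors furthest to the left (median -1.02, 13 of 26 lower).

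Whether a change differed from that in WT BMDCs was asked with an interaction test. For comparison, the WT means were read in the same way: Fosb averaged 121 CPM at 0p5h and 1.44 CPM at 24h, Ptgs2 317 and 20.2 CPM, Ch25h 1.51 and 13.5 CPM, Ifit1 13 and 25.3 CPM, Irf7 143 and 129 CPM, and Gapdh 213 and 223 CPM. Irf7 was uneven among WT cultures, at 8.09 to 410 CPM at 0p5h, and its mean in the ctrl libraries labelled Cacnb3-KO was 8.86 CPM. The log2 changes of Irf7, Ifit1, Ptgs2 and Gapdh differed between genotypes by 1.34, 1.73, 2.46 and -1.02 (SE 0.35, 0.37, 0.66 and 0.34), and none passed (edgeR adjusted p = 0.108 to 0.109). These rises and falls are not shown to differ from those in WT.

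One gene of 13424 (0.00745%) passed the interaction test. Btla, an inhibitory receptor of the immunoglobulin family that binds HVEM, had 1.32, 1.28, 0.67, 1.36 and 0.702 CPM at 0p5h and 1.73, 4.31, 1.32, 3.14 and 0.99 CPM at 24h in libraries labelled Cacnb3-KO, higher in each culture with overlapping sets (1.08, SE 0.25, edgeR adjusted p = 0.00993). In WT it had 9, 3.58, 20.5, 7.58 and 0.739 CPM at 0p5h and 3.93, 1.61, 8.77, 3.2 and 0.329 CPM at 24h, lower in each of the cultures p974s846, p974s850, p974s855, p974s856 and p974s864. The difference of the log2 changes was 2.29 (SE 0.26, edgeR adjusted p = 0.0027). It rests on 98 and 170 reads in all at 0p5h and 24h in the libraries labelled Cacnb3-KO. Without the block no gene passed, and DESeq2 called 35. In the blocked edgeR fit, which called Btla alone, 3817 of the 13424 genes had an unadjusted p under 0.05. The single call therefore does not show that the other genes changed alike in both genotypes. Genotype and substrain (C57BL/6N against C57BL/6J) cannot be told apart here.

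**Figure D5:**
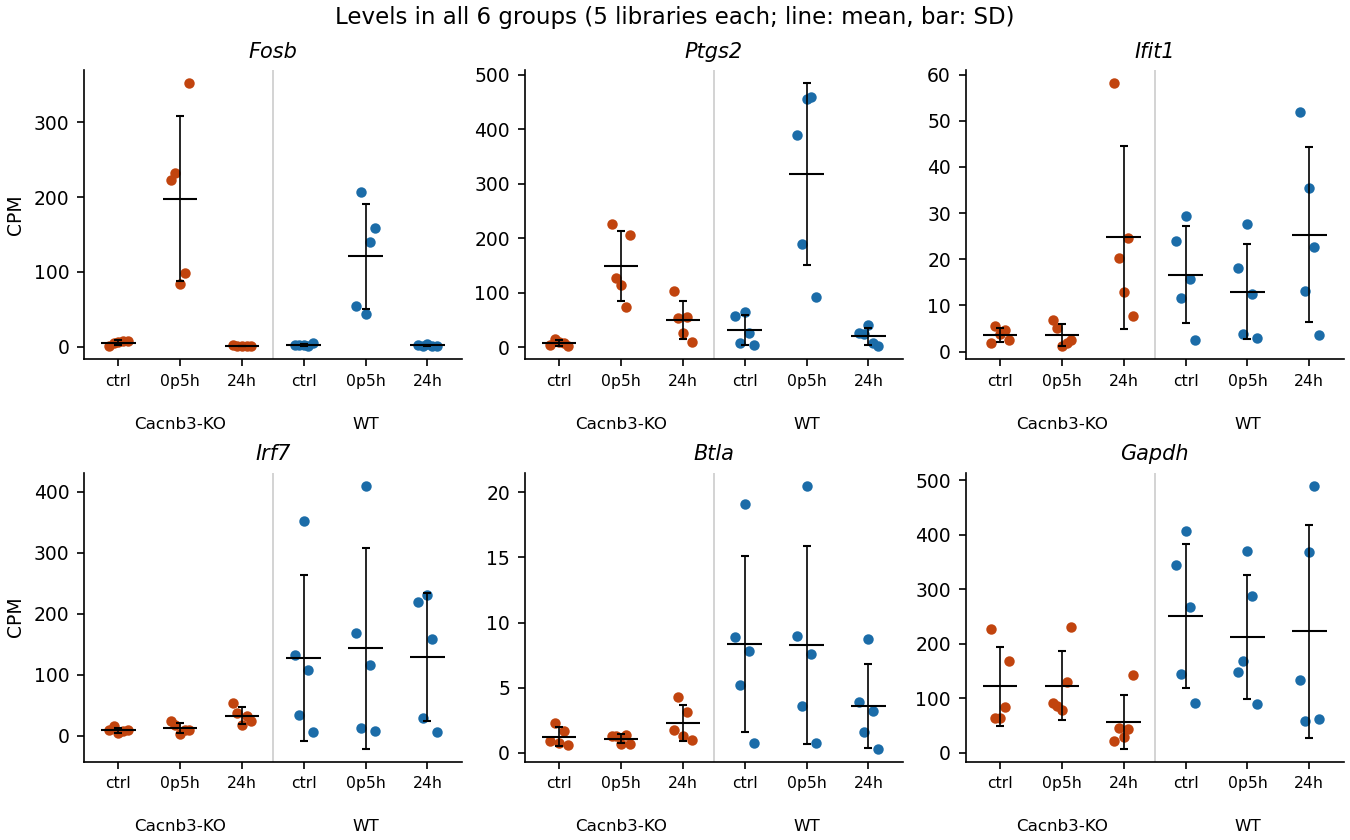
Levels in CPM (y axes) of Fosb, Ptgs2, Ifit1, Irf7, Btla and Gapdh in the 6 groups of the series, with 1 point per library, a horizontal line at the mean and a vertical bar for the SD (n = 5 each). Fosb is high in the 0p5h sets of both genotypes (mean 121 CPM in WT), and Btla at 0p5h averages 8.27 CPM in WT and 1.07 CPM in the libraries labelled Cacnb3-KO.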

How the data were processed

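BMDC poly(A) RNA libraries were counted per gene by the authors: per the file headers, the deposited counts are whole reads from featureCounts 1.5.1 on read 1 alignments with the GRCm38 annotation of Ensembl release 79 and no strand option, and the submitters' notes name mm10, STAR 2.4 and DESeq2, whereas the methods name GRCm39. Overlapping and antisense genes are therefore uncertain. Symbols came from a reference table (89.4% of 43629 rows), and coordinates are those of GRCm38.

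Groups followed the library names. Members and gene lists were chosen with earlier results of these data known. Counts of the 10 libraries were filtered (filterByExpr), TMM-scaled and tested with edgeR 4.0.16 quasi-likelihood (R 4.3.3), with set and culture in the model and Benjamini-Hochberg adjustment. Calls needed both an adjusted p below 0.05 and 2-fold or more. The interaction used the WT libraries too. Same-numbered libraries deviated together (correlation 0.475 or more in 5 of 5 cultures, median 0.694, other numbers -0.215), and in 4 of 5 cultures both came from 1 lane. No libraries were identical. Depth of 8237393 to 22826581 reads per library set the precision, which is poorest for genes of few reads.

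Named were the 15 largest rises and falls with at least 5 CPM in the higher set and 1 direction in 5 of 5 cultures, every called list member, the defining list members and Cacnb3. On simulated data for this comparison (12578 genes, 200 changed) 95.5% were recovered with 0 false calls. How far these figures hold for the measured libraries was not tested. Alternatives were other tools (DESeq2 1.42.0, limma 3.58.1), size factors, filters, fits without the block, GC removal, thinning, all 30 libraries and leaving out cultures.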

Additional observations from a re-analysis of the deposited data

Results flagged for a closer look

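Values that stood apart from the other 4 libraries of their set were looked for with Dixon's test in the sets 0p5h and 24h of the libraries labelled Cacnb3-KO, over 472 sets of values, and 25 passed, where chance flags about 1 in 20. In the 24h library of culture p974s843 the highest values were those of Egr1 (27 CPM), Fos (54), Nr4a1 (8.38), Rgs2 (147), Hilpda (103), Spry2 (5.99), Fcgr1 (60.3), Xaf1 (36.6), Ifit3 (25.5) and Klk1 (0.133), and the lowest were those of Fscn1 (1969) and Adora2a (70.5). That library was the shallowest of these sets and had the highest mitochondrial share. In the 0p5h library of the same culture Egr1 (123 CPM), Cxcl1 (36.4) and Slfn4 (14.6) were highest. Culture p974s865 stood highest for Egr3 (41.2 CPM) and the neutrophil elastase gene Elane (1.46) at 0p5h and for Gapdh (143), Itpr3 (17.5) and Cd3e (0.165) at 24h, and lowest for Nfkbiz (15.8) at 24h. Culture p974s853 stood highest for Ier2 (168 CPM) and Jun (79.5) at 0p5h and for Hspa1a (5.01) at 24h, and culture p974s851 for Ncr1 (0.0501) at 24h.

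Btla stood out because its log2 change from 0p5h to 24h differed between genotypes, by 2.29 (edgeR interaction test, adjusted p = 0.0027, 5 cultures each). It was higher at 24h in 5 of 5 cultures labelled Cacnb3-KO and lower in 5 of 5 WT cultures.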

How the results depend on the processing

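Of the 167 genes higher and 200 lower at 24h, the number depended most on 3 choices. Without the replicate block 21 and 63 were called, with no minimum for the fold 1811 and 1834, and with the log2 mitochondrial share as a covariate 10 and 67. That covariate, the fit without mitochondrially encoded genes and the fit without cultures p974s843 and p974s853 were chosen after seeing the data, and the last 2 gave 164 and 202, and 135 and 198. DESeq2, limma-voom, other size factors, no filter, all 30 libraries, GC removal and thinned counts gave 127 to 215 higher and 152 to 257 lower. Leaving out 1 culture gave 131 to 204 higher and 169 to 218 lower. Of 91 named genes that were called, 50 missed the criteria without the block, 51 with the covariate, 12 with GC removal and at most 8 when a culture was left out, and none turned its direction. The interaction count, 1, was 0 without the block, 35 with DESeq2, 153 without a filter on low counts, 3 with GC removal and 1 to 252 when a culture was left out (10 without p974s850, 252 without p974s865). Genes in the lowest decile of GC content (up to 41.5%) had a median log2 difference of 0.344 and those in the highest decile (from 57%) of -0.306, and the cause was not tested. Of the genes that rose, 92 had means under 5 CPM in both sets, as had 74 of those that fell, and depth limits these most.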

Other observations

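Genes with Zfp symbols, mostly KRAB and other C2H2 zinc finger proteins, leaned upwards at 24h in the libraries labelled Cacnb3-KO: of 300 tested, 13 were called higher (1.31% of all genes) and 2 lower (1.57% of all genes), and their median log2 difference was 0.37. The group was chosen after its values were seen. It has a low GC content, with a median of 44.6% beside 49.3% for all tested genes, and its median was 0.21 once the GC trend was removed.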
